A study of Mus musculus with 2 samples.

Results

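Cd200, Itgav, Thy1, Eng, Ctsk, Nt5e, Pdpn, Cd164, Ly6a, and Cd34 are genes whose products are used to sort or trace skeletal stem cells (SSCs). These 10 genes, of 32288 features counted, were described here across the stromal and blood cells of mouse periosteum. The 10 were listed by symbol, with no measured value in the rule, but earlier results of these data were known when they were chosen. All 10 were counted in both libraries, and all 10 passed the filter on low counts. The samples were 2 libraries, replicates 1 and 2 of a single condition, of long bone periosteum from C57BL6 mice labelled wild-type, at 4 weeks of age, made from cells sorted as CD45−CD31−Ter119− and measured by 10x droplet scRNA-Seq. The labels give no transgene, Cre, or treatment, although reporter RNA was counted in both libraries (given below), and the number of mice behind each library was not given, so p values measure only the spread between these 2 libraries, which may be technical. Fewer cells of a type and less RNA per cell cannot be told apart in a sum of counts, so levels are given relative to all counts of a class.

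SSCs are self-renewing cells of bone that form osteoblasts, chondrocytes, and stroma, and in the periosteum, the fibrous sheet around bone, they take part in fracture repair. They are isolated by combinations of surface proteins rather than by any single protein: mouse SSCs have been sorted as CD200+ integrin αV+ cells that lack THY1 and the endoglin protein CD105, human SSCs as PDPN+CD73+CD164+ cells that lack CD146, and stromal progenitors as PDGFRα+SCA-1+ cells. Periosteal stem cells have also been traced with a Cre driven by Ctsk, a gene better known for the bone-resorbing protease of osteoclasts. In this series the proteins were not measured, so every statement below is on RNA.

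Library 1 held 9932 barcodes with 100808649 unique molecular identifiers (UMIs, each standing for 1 captured RNA molecule), and library 2 held 3659 barcodes with 33306452 UMIs. The limits set on a barcode were a minimum of 500 genes and of 500 UMIs and a maximum of 10% mitochondrial UMIs, and 6276 and 2893 cells passed, with medians of 8164 and 6279 UMIs. The libraries shared 8 barcode sequences, 7 of them among the kept cells. Although the sort was meant to remove blood, cells named as blood made up 91.9% of kept cells in library 1 and 60.8% in library 2. Ptprc, which encodes CD45, was at 279 and 180 CPM (UMIs of a gene divided by all UMIs of the class, times 1000000) in immature neutrophil-like cells and at 28.4 and 3.42 CPM in fibroblast-like cells. Pecam1, which encodes CD31, was at 67.0 and 43.0 CPM in resting pre-B-like cells. Stromal cells were unevenly spread, with 29 fibroblast-like cells in library 1 and 316 in library 2, or 0.462% and 10.9% of kept cells, so values of library 1 rest on fewer stromal cells.

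Classes were named from marker genes after the cells had been clustered with the 10 genes left out, and the suffix “-like” marks a name that rests on RNA markers. Stromal classes were fibroblast-like, tenocyte-like (16 and 115 cells), Adipoq stromal-like (83 and 38 cells, led by Cxcl12, Adipoq, and Lpl), osteoblast-like (131 and 253), chondrocyte-like (27 and 123), hypertrophic chondrocyte-like (17 and 47), skeletal muscle-like (71 and 63), and smooth muscle/pericyte-like (4 and 20). There were 12 blood classes, and 3 clusters stayed unnamed and are called by their leading genes Col10a1, Msmp, and Gm26917. The Msmp-led cluster held 75 cells of library 2 and none of library 1.

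The counted features also included the sequences of the fluorescent reporters EGFP and tdTomato, and their values go against the wild-type label. EGFP had 6837 UMIs in 170 cells of library 2 and no UMI in library 1, so the libraries stand apart. In library 2 it was found in 52.7% of the Col10a1-led cluster, where it was among the leading genes, in 63.8% of hypertrophic chondrocyte-like cells, in 25.2% of the chondrocyte-like class, in 15.8% of the osteoblast-like class, and in 14 of the 316 fibroblast-like cells. A tdTomato UMI was found in 16.4% of cells in library 1 and 29.2% in library 2, blood classes included, and its level in fibroblast-like cells was 28.4 and 516 CPM. The study also used mice with GFP and tdTomato alleles, but no label ties them to these libraries, and libraries and reporter genotype cannot be told apart. Leaving out cells with an EGFP UMI, a setting chosen after the data were seen, changed 1 call for the 10 genes, and leaving out cells with a UMI of any reporter changed 4, each given with its comparison.

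Promoter sequences were available for 8 of the 10 genes from RefSeq on GRCm38.p6, each with 250 bases before and 50 after the RefSeq gene start. Thy1 and Ly6a had no entry. RefSeq starts can differ from those of GENCODE, the source of the gene coordinates below. The Nt5e window, 88327359 to 88327658 on chromosome 9, lies wholly inside the GENCODE gene, which starts at 88327197. They are shown for Cd34 and Pdpn, whose RNA was highest in fibroblast-like cells, and for Cd164, whose RNA was found in all classes, because these are the narrowest and the broadest patterns described below. The Cd34 window is chr1:194938571-194938870 on the plus strand, the Pdpn window chr4:143299515-143299814 on the minus strand, and the Cd164 window chr10:41519250-41519549 on the plus strand, each written 5′ to 3′ with GC box letters (GGGCGG, or CCGCCC as read on the other strand) in capitals.
Cd34: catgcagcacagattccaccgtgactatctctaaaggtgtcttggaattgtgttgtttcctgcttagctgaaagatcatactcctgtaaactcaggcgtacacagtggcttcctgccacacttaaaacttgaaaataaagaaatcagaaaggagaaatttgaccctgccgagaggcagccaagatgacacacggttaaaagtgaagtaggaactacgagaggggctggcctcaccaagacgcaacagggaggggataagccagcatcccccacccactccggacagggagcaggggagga
Pdpn: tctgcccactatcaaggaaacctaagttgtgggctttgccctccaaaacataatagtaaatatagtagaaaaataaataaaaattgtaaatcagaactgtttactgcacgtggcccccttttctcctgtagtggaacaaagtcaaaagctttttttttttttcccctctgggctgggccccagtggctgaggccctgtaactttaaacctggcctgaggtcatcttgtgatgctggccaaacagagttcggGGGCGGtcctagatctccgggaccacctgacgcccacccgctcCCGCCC
Cd164: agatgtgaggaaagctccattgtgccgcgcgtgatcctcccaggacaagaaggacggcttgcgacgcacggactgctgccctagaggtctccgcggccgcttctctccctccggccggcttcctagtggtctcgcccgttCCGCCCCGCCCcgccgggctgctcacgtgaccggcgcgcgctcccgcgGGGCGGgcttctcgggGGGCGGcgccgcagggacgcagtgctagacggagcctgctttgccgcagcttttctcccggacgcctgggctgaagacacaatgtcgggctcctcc

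The Cd164 window held 4 GC boxes, the Pdpn window 2, and the Cd34 window 0. Over all 8 windows, 5 held a GC box, with 4 in Nt5e and 1 each in Cd200 and Itgav, whereas 35.7% of 32851 promoters of the same length held one. In Cd164 and Nt5e some of these matches overlapped each other. None of the 8 held TATAAA or CCAAT on either strand, which were found in 13.6% and 37.4% of promoters. GC content was 70.0% for Cd164 and 48.7% for Pdpn, against a median of 52.7% over all promoters. These matches describe letters in a window and were not tested against expression.

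Ly6a, Cd34, Thy1, and Pdpn shared a pattern, with the highest level in fibroblast-like cells among the 21 classes and clusters with at least 10 cells in both libraries, and with no overlap between libraries of that class and the next in order. The share of all genes with this pattern was not counted, so it describes these genes and does not set them apart from others. Ly6a (chromosome 15, 74994877 to 74998031, minus strand), which encodes SCA-1, was at 1922 CPM in library 1 and 2497 CPM in library 2 of fibroblast-like cells. Tenocyte-like cells followed at 179 and 383 CPM, hypertrophic chondrocyte-like cells at 41.6 and 101 CPM, and osteoblast-like cells were at 0.347 and 28.7 CPM. Tenocyte-like and hypertrophic chondrocyte-like cells did not overlap, while hypertrophic chondrocyte-like cells and the Col10a1-led cluster, at 45.1 and 93.5 CPM, did. The tenocyte-like value of library 1 rests on 23 Ly6a UMIs in 3 of 16 cells. At a finer clustering, resolution 1.2, the tenocyte-like class held 2 cells of library 1, so its place in any order here is weakly based. In library 2, single cells carried much of the low signal: 16 of 18 Ly6a UMIs in Adipoq stromal-like cells and all 26 in erythroblast-like cells were in 1 cell each, and in that erythroblast-like cell the fibroblast marker list was at 4543 CPM, against 8.60 CPM in the other 54 cells.

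Cd34 (chromosome 1, 194938819 to 194961279, plus strand), a sialomucin gene known from blood progenitors, endothelium, and fibroblasts, was at 967 and 869 CPM in fibroblast-like cells. It was at 130 and 137 CPM in T/NK-like cells, at 70.1 and 80.1 CPM in tenocyte-like cells, and at 24.98 and 31.8 CPM in promyelocyte-like cells, and none of these 4 classes overlapped its neighbor in the order. The tenocyte-like value of library 1 rests on 9 Cd34 UMIs in 3 cells. No Cd34 UMI was found in Adipoq stromal-like, chondrocyte-like, or hypertrophic chondrocyte-like cells of either library. The T/NK-like class was mixed, and its 47 cells with a Cd34 UMI in library 1 had the promyelocyte list at 1762 CPM, the basophil/mast list at 1085 CPM, the hematopoietic progenitor list (Mecom, Hlf, Meis1, Kit, Flt3) at 346 CPM, and the NK and T cell lists at 128 and 31.2 CPM. Its other 74 cells had the basophil/mast list highest, at 6558 CPM, with the NK list at 2067, the promyelocyte list at 704, the T cell list at 620, and the progenitor list at 52.8 CPM. In library 2, the 9 cells with Cd34 had the promyelocyte list at 1571, the progenitor list at 249.7, and the basophil/mast list at 34.4 CPM, against 578, 44.1, and 10230 CPM in the other 30 cells.

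Thy1 (chromosome 9, 44043384 to 44048579, plus strand), which encodes the GPI-anchored protein CD90, was at 344 and 196 CPM in fibroblast-like cells, followed by tenocyte-like cells at 46.8 and 48.5 CPM. In library 1 all 6 tenocyte-like Thy1 UMIs lay in 1 of 16 cells, so the nearness of these 2 values is no replicate check. T/NK-like cells were at 24.5 and 35.7 CPM, and chondrocyte-like cells had no Thy1 UMI. Thy1 is a textbook T cell marker, but the T/NK-like class was mixed, as given for Cd34. Its level is therefore not that of T cells alone. In Adipoq stromal-like cells Thy1 was at 1.65 and 90.6 CPM, a gap between libraries that came from 1 and 6 cells, with 10 of the 19 UMIs of library 2 in 1 cell. The 20 smooth muscle/pericyte-like cells of library 2, too few in library 1 to be tested, had Thy1 at 436 CPM.

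Pdpn (chromosome 4, 143267431 to 143299564, minus strand), which encodes podoplanin, a mucin-type protein of fibroblasts, lymphatic vessels, and osteocytes, was at 119 and 140 CPM in fibroblast-like cells. Tenocyte-like cells were at 15.6 and 34.8 CPM, the first from 2 UMIs, and osteoblast-like cells at 31.3 and 16.3 CPM, and the libraries of these classes overlapped. No Pdpn UMI was found in Adipoq stromal-like or hypertrophic chondrocyte-like cells. Among osteoblast-like clusters of library 1, Pdpn was at 35.6 CPM in the Dmp1-led cluster, which carries the osteocyte gene Dmp1, and at 32.6 CPM in the largest Bglap-led cluster, and in library 2 it was at 24.99 and 12.9 CPM.

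**Figure D1:**
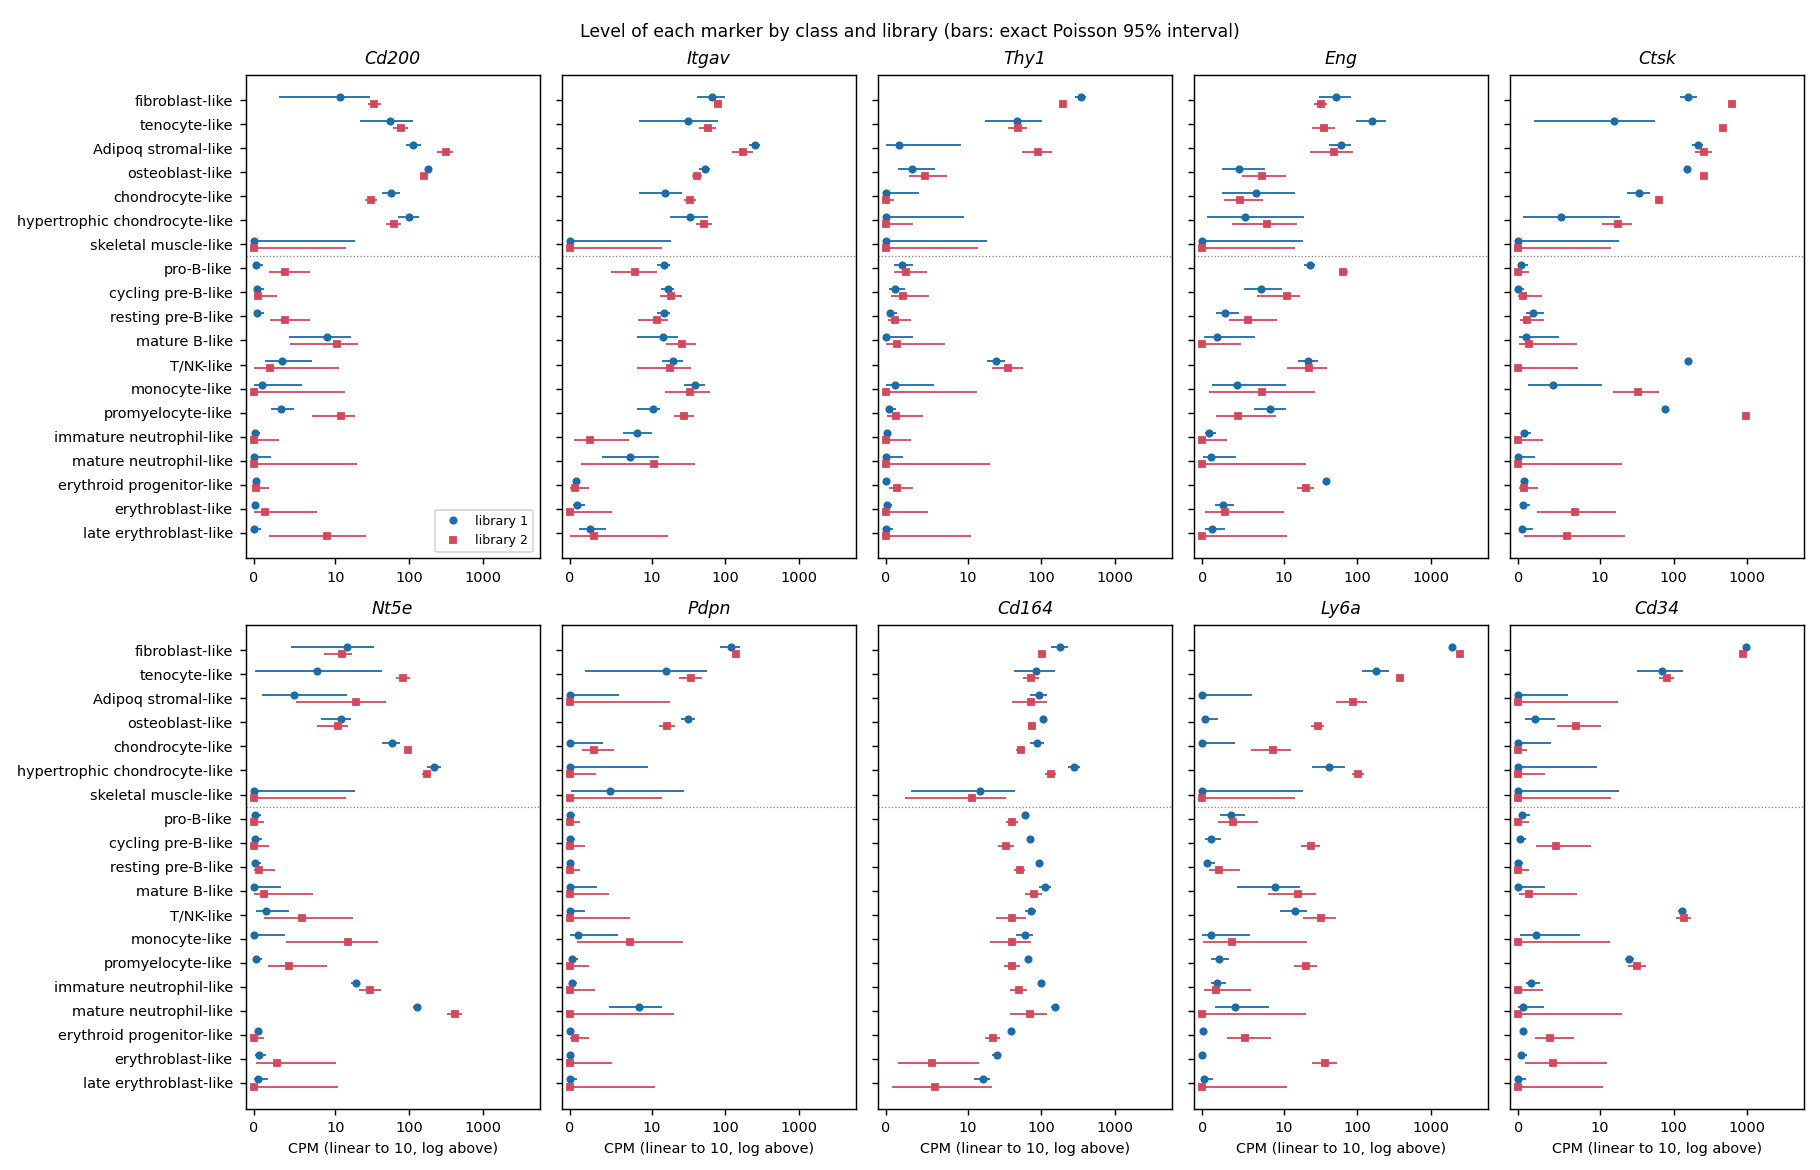
Level of each of the 10 genes in each named class with at least 10 cells in both libraries, in CPM of summed UMIs, with 1 point per library. Unnamed clusters are not drawn, among them the Col10a1-led cluster, which had the highest mean Cd164 level, at 414 and 258 CPM. Ly6a, Cd34, Thy1, and Pdpn sit highest in fibroblast-like cells among the classes shown, whereas Cd200 sits at 180 and 163 CPM in osteoblast-like cells and Nt5e at 129 and 417 CPM in mature neutrophil-like cells.

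Among classes with at least 10 cells in both libraries, Cd200 and Itgav had their highest mean levels in Adipoq stromal-like cells. Ctsk was spread over the stromal classes. Cd200 (chromosome 16, 45382135 to 45409053, minus strand), which encodes an immune inhibitory ligand used as a positive marker of mouse SSCs, was at 115 and 315 CPM in Adipoq stromal-like cells and at 180 and 163 CPM in osteoblast-like cells, so these classes overlapped. In library 2, 24 of the 66 Cd200 UMIs of Adipoq stromal-like cells lay in 1 cell. That class held 83 and 38 cells, but 62 and 9 at the finer clustering of resolution 1.2, so its extent in library 2 depended on the clustering. Hypertrophic chondrocyte-like cells were at 101 and 62.6 CPM, tenocyte-like cells at 54.6 and 76.9 CPM, chondrocyte-like cells at 57.2 and 30.5 CPM, and fibroblast-like cells at 11.4 and 33.9 CPM. The Msmp-led cluster of library 2 was at 220 CPM. Blood classes were all at or below 11.8 CPM.

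Itgav (chromosome 2, 83724397 to 83806916, plus strand), the integrin αV subunit gene of receptors for vitronectin and other matrix proteins, was at 252 and 176 CPM in Adipoq stromal-like cells. Fibroblast-like cells came next at 65.4 and 79.4 CPM, and neither class overlapped its neighbor. Osteoblast-like cells were at 52.5 and 41.9 CPM, and overlapped with tenocyte-like cells, at 31.2 and 57.9 CPM. Monocyte-like cells, at 38.9 and 32.9 CPM, were the highest blood class. Smooth muscle/pericyte-like cells (4 and 20 cells) are outside this order. They held 9 Itgav UMIs of 23750 and 13 of 128441, above the fibroblast-like level in both libraries. That class also held 10 and 25 Cd200 UMIs and 3 and 11 Eng UMIs.

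Ctsk (chromosome 3, 95499256 to 95509362, plus strand), the gene of the collagen-degrading protease cathepsin K, was at 159 and 615 CPM in fibroblast-like, 214 and 257 CPM in Adipoq stromal-like, 154 and 261 CPM in osteoblast-like, and 15.6 and 474 CPM in tenocyte-like cells. These 4 classes overlapped, and libraries differed 3.86-fold in fibroblast-like and 30.4-fold in tenocyte-like cells. The tenocyte-like value of library 1 rests on 2 Ctsk UMIs, so the 30.4-fold difference is poorly measured. The highest mean belonged to promyelocyte-like cells, at 75.2 and 974 CPM, and T/NK-like cells were at 159 and 0 CPM. Those blood values came from very few cells: 6 cells with at least 10 Ctsk UMIs held 2439 of the 2524 Ctsk UMIs of all blood classes, or 96.6%. In the 4 such promyelocyte-like cells of library 2 the osteoclast genes Acp5, Mmp9, and Atp6v0d2 were at 10345, 752, and 714 CPM, against 100, 0.690, and 1.38 CPM in the other cells of the class. In the 53 fibroblast-like cells of library 2 with at least 10 Ctsk UMIs, Ctsk was at 1625 CPM and Acp5 at 124 CPM, against 332 and 28.5 CPM in the other fibroblast-like cells. Atp6v0d2 was found in 1 of these 53 cells (1.56 CPM against 0.438), and Mmp9, Ocstamp, and Dcstamp had no UMI in them.

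Eng, Nt5e, and Cd164 were shared with blood classes. Eng (chromosome 2, 32646595 to 32682669, plus strand), which encodes endoglin (CD105), a TGF-β co-receptor also found on endothelium and erythroid progenitors, was at 156 and 34.8 CPM in tenocyte-like, 59.3 and 47.7 CPM in Adipoq stromal-like, and 51.2 and 31.5 CPM in fibroblast-like cells. Pro-B-like cells were at 22.5 and 64.2 CPM and erythroid progenitor-like cells at 36.9 and 19.9 CPM, both overlapping with tenocyte-like and fibroblast-like cells, while osteoblast-like cells were at 4.52 and 7.38 CPM. In the 16 tenocyte-like cells of library 1, Pecam1 was at 101 CPM, against 22.1 CPM in library 2, and its part in the Eng value was not tested. Eng overlaps the gene model Gm47291 on its own strand, so reads from the shared stretch cannot be assigned to either gene alone.

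Nt5e (chromosome 9, 88327197 to 88372092, plus strand), which encodes CD73, the enzyme that turns extracellular AMP into adenosine, was at 129 and 417 CPM in mature neutrophil-like cells, 271 and 146 CPM in the Col10a1-led cluster, and 218 and 175 CPM in hypertrophic chondrocyte-like cells, which overlapped. Chondrocyte-like cells followed at 58.3 and 96.8 CPM, below hypertrophic chondrocyte-like cells without overlap. Immature neutrophil-like cells were at 18.8 and 29.9 CPM, below the mature neutrophil-like class in both libraries. Fibroblast-like cells were at 14.2 and 12.3 CPM.

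Cd164 (chromosome 10, 41519414 to 41531048, plus strand), the gene of the sialomucin endolyn, was found in all classes. It was at 414 and 258 CPM in the Col10a1-led cluster, 278 and 134 CPM in hypertrophic chondrocyte-like, and 179 and 104 CPM in fibroblast-like cells, and neighbors in this order overlapped. Late erythroblast-like cells, at 15.9 and 5.96 CPM, were among the lowest.

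Fibroblast-like cells were not uniform. In library 2, the 183 cells of a cluster led by Mfap5, Ly6a, and Clec3b, genes of a matrix-rich and adventitial fibroblast type, had Thy1 at 254 CPM, Cd34 at 997 CPM, Ly6a at 2986 CPM, and Cd164 at 127 CPM. The 107 cells of a cluster led by Mfap4, Eln, and Col3a1 had them at 76.3, 646, 1530, and 61.0 CPM, with Cd200 at 63.4 CPM, and Cd200 was lower in the first cluster, with 38 UMIs in 183 cells against 54 in 107. Ctsk was at 643 and 622 CPM in the 2 clusters, and Pdpn at 160 and 114 CPM. The second cluster held 3 cells in library 1, so this difference has no replicate check and, as the clusters come from the same cells, no test was made. A smaller cluster led by Lpl, Pi16, and Myoc (9 and 26 cells) carried Cd79a and Igkc, B cell genes, at 2756 CPM in sum, against 5.65 CPM in the Mfap5-led cluster, and no call for the 10 genes changed when it was left out.

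To ask how the genes differ between the stromal classes, UMIs were summed per class and library, and fibroblast-like cells were compared with osteoblast-like cells over 13634 genes by edgeR's quasi-likelihood test. Of the 10 genes, 4 were higher and 1 lower at a Benjamini-Hochberg adjusted p under 0.05, beside 11.5% of all genes called, 6.81% as higher and 4.72% as lower. The higher genes were Ly6a, Cd34, Thy1, and Eng, and the lower gene was Cd200. Cd34 rose by 7.04 ± 1.06 (log2 fold change ± SE, adjusted p = 6.3e-05) and Thy1 by 5.46 ± 1.04 (adjusted p = 0.000732). Ly6a rose by 6.71 ± 1.73 (adjusted p = 0.00955), and from library 1 alone, where osteoblast-like cells had 1 Ly6a UMI, this log2 difference was 10.2, against 6.07 from library 2 alone. Eng rose by 2.16 ± 0.63 (adjusted p = 0.0213), from 4.52 and 7.38 to 51.2 and 31.5 CPM. Cd200 fell by 3.22 ± 0.86 on the log2 scale (adjusted p = 0.0117), and its libraries did not overlap between the classes. From libraries 1 and 2 alone the Cd200 difference was −4.65 and −2.58, that of Cd34 was 7.72 and 6.47, and that of Thy1 was 5.755 and 4.861. Cd200 was −2.85 with no call (adjusted p = 0.0596) without cells with a reporter UMI.

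Itgav, Ctsk, Nt5e, and Cd164 differed by 0.12, 0.49, −0.30, and 0.02 on the log2 scale and did not pass the test. These folds are on TMM-scaled sums, whereas levels are plain CPM, so small differences can change sign. In CPM, Nt5e was slightly higher in fibroblast-like cells, at 12.3 to 14.2 against 10.8 to 11.8. Itgav was at 65.4 to 79.4 against 41.9 to 52.5 CPM, and neither gene overlapped between the classes. For Nt5e this does not show a separation. In library 1 its fibroblast-like value rests on 5 UMIs in 2 cells, and 16 of its 34 osteoblast-like UMIs lay in 1 cell. Pdpn was at 1.93 ± 0.85 with an adjusted p of 0.165, although its libraries did not overlap, and with the library as a block it was at 1.86 with an adjusted p of 0.0452. Without cells with a reporter UMI, Pdpn was at 3.47 (adjusted p = 0.0301, edgeR). The median over the 10 genes was 1.21, beside −0.02 over all genes. With this block, 2595 genes were called in place of 1572. The 928 higher and 644 lower calls became 1223 and 541 when DESeq2's size factors replaced TMM.

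The other SSC genes, 21 genes of receptors, surface proteins, and transcription factors used in sorts and traces, were counted in the same comparison, and 19 of them could be tested. Of these, 6 were higher in fibroblast-like cells and 3 lower, with a median log2 difference of 1.37. Enpep, which encodes an aminopeptidase whose absence marks mouse SSCs, had no UMI in osteoblast-like cells, and against the floor of 3 counts over both libraries, 0.450 CPM, it was at least 12.7-fold higher in fibroblast-like cells (adjusted p = 0.00181, edgeR). This bound takes the lower fibroblast-like library, at 5.69 CPM, which rests on few Enpep UMIs. It carries no interval for counting error. Pthlh, a gene of the parathyroid hormone-related signal of cartilage, had 0 and 2 UMIs in the osteoblast-like class against 5 and 254 in the fibroblast-like class, a ratio of summed CPM of 264 (exact 95% interval for counting error 72.4 to 2192). The angiopoietin receptor gene Tek was higher by 5.15 on the log2 scale. Nes, which encodes nestin, and the adhesion gene Alcam were lower in fibroblast-like cells, where they had 3 and 2 UMIs in all, and osteoblast-like cells held 22.1-fold (7.39 to 108) and 18.9-fold (5.05 to 159) more in CPM. Runx2, the master regulator of osteoblasts, was lower at −4.39 ± 0.77 (adjusted p = 0.000292). The other SSC genes were not kept out of the main clustering, so they could help define the classes compared. Their p values, here and in the comparisons below, therefore do not test differences between independently defined classes.

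Against chondrocyte-like cells, 5 of the 10 genes were higher and 1 was lower, beside 17.2% of all genes called, 10.3% as higher and 6.87% as lower. Thy1 and Cd34 had no UMI in chondrocyte-like cells of either library, and against the floor of 3 counts over both libraries, 0.656 CPM, Thy1 was at least 299-fold and Cd34 at least 1326-fold higher in fibroblast-like cells (adjusted p = 3.4e-05 and 4.54e-06, edgeR). Ly6a rose by 8.17 ± 1.88 on the log2 scale (adjusted p = 0.00253), and Pdpn by 5.46 ± 1.08 (adjusted p = 0.000886), from 0 and 3.0 CPM. From libraries 1 and 2 alone these were 10.9 and 7.74 for Ly6a and 6.90 and 4.96 for Pdpn. Chondrocyte-like cells of library 1 had no UMI of either gene. The library 1 values therefore depend on a small count added before the log and do not measure a fold. Eng rose by 2.41 ± 0.67 (adjusted p = 0.0115), and by 1.86 without cells with a reporter UMI, when it did not pass (adjusted p = 0.0506). Nt5e fell by 3.01 ± 0.90 on the log2 scale (adjusted p = 0.0172), from 58.3 and 96.8 to 14.2 and 12.3 CPM.

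Cd200, Itgav, and Cd164 differed by −1.12, 1.08, and 0.52 and did not pass. Ctsk, at 34.1 and 63.3 CPM in chondrocyte-like cells, was at 2.63 ± 1.16 with an adjusted p of 0.119, and at 2.42 with an adjusted p of 0.0488 with the library as a block. The medians were 2.52 over the 10 genes and 0.06 over all genes. DESeq2 did not call Nt5e (adjusted p = 0.147) or Pdpn (adjusted p = 0.438), and Nt5e was not called when the other SSC genes were also kept out of the clustering (adjusted p = 0.0951). Of the other SSC genes tested, 9 were higher and 2 lower. Tek and Enpep had no UMI in chondrocyte-like cells and were at least 40.7-fold and 8.68-fold higher in fibroblast-like cells. The Enpep bound again rests on few UMIs, at 5.69 CPM in the lower fibroblast-like library. The aminopeptidase gene Anpep had 32 and 450 UMIs in fibroblast-like cells against 0 and 1, a ratio of 674 with a counting interval of 120.4 to 26674. The PDGF receptor gene Pdgfra was at 7.66 and the limb mesenchyme factor Prrx1 at 5.64 on the log2 scale. Sox9, the master regulator of cartilage, was lower at −5.53 ± 0.90 (adjusted p = 4.99e-05). This p value carries the same limit, as the main clustering could use Sox9 and the other SSC genes.

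Against Adipoq stromal-like cells, a class with markers of marrow stroma, 3 of the 10 genes were higher and 0 lower, beside 4.16% of all genes called, 2.44% as higher and 1.72% as lower. Pdpn and Cd34 had no UMI in Adipoq stromal-like cells, and against the floor of 3.67 CPM Pdpn was at least 32.5-fold and Cd34 at least 237-fold higher (adjusted p = 0.00341 and 0.000137, edgeR). DESeq2 did not call Pdpn (adjusted p = 0.543). Ly6a rose by 6.32 ± 1.78 on the log2 scale (adjusted p = 0.0372), a call that was lost with DESeq2's size factors (adjusted p = 0.0558), with stromal classes alone in the fit (0.0941), and with DESeq2 (0.0994). Without library 2, whose Adipoq stromal-like Ly6a UMIs lay mostly in 1 cell, the Ly6a difference was 10.9, and without library 1 it was 5.37. Adipoq stromal-like cells of library 1 had no Ly6a UMI, so the value of 10.9 depends on a small count added before the log.

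Cd200 and Thy1 did not pass here but did with the library as a block. Cd200 was at −2.64 ± 0.86 (adjusted p = 0.0785), and at −2.66 with the block (adjusted p = 0.00692). Thy1 was at 3.06 ± 0.99 (adjusted p = 0.0778), and at 3.51 with the block (adjusted p = 0.00144), while single libraries gave 7.09 for library 1 and 1.63 for library 2. Itgav, Eng, Ctsk, Nt5e, and Cd164 differed by −1.19, −0.13, 1.19, 0.80, and 1.04 and did not pass. The block raised the number of genes called from 567 to 1010, and DESeq2's size factors changed the 332 higher and 235 lower calls to 265 and 291. The median log2 difference was 1.11 over the 10 genes and 0.12 over all genes.

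Among the other SSC genes, 2 were higher and 4 lower than in Adipoq stromal-like cells. The hyaluronan receptor gene Cd44 was higher by 3.14 on the log2 scale, and Pthlh, with 1 UMI in Adipoq stromal-like cells, by a CPM ratio of 64.7 (counting interval 11.5 to 2564). Mcam, which encodes CD146, had 15 UMIs in Adipoq stromal-like cells and 1 in fibroblast-like cells, a ratio of 60.1 (9.24 to 2529). The BMP antagonist gene Grem1 was at −5.56, Runx2 at −4.74, and Pdgfrb at −2.52. The 3 comparisons share the fibroblast-like sums, so their values stand side by side and do not support each other.

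**Figure D2:**
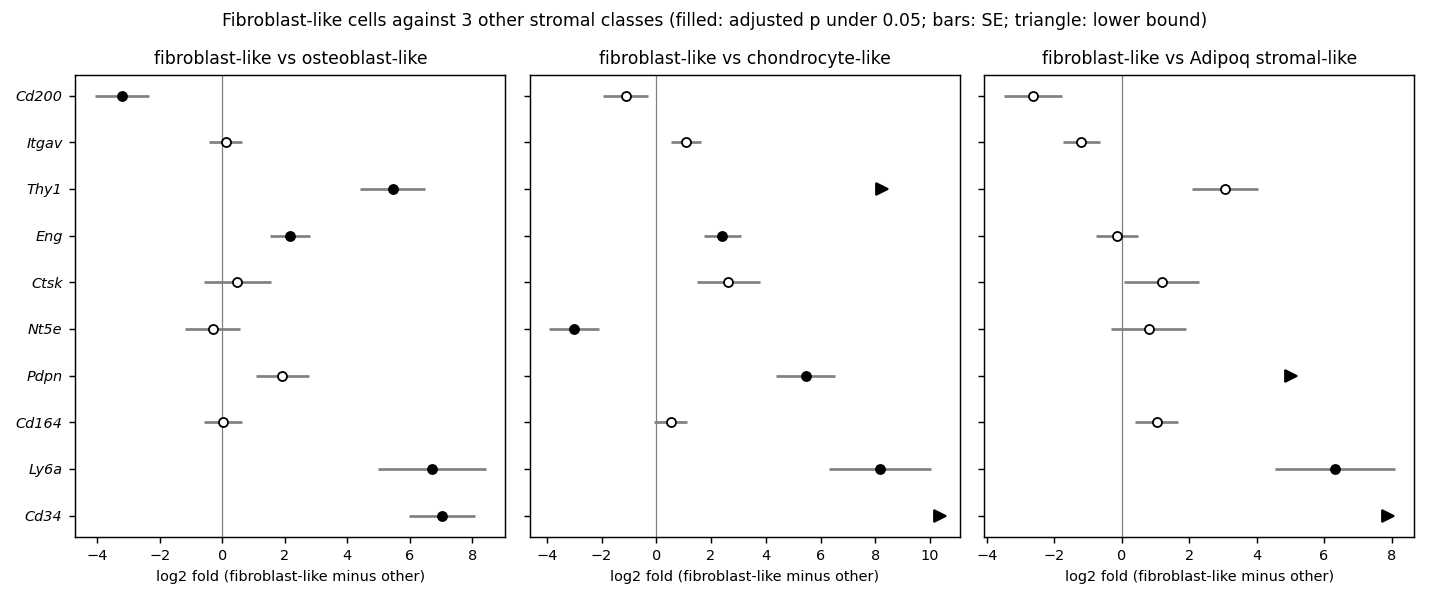
Log2 fold changes with standard errors for the 10 genes in the comparisons of fibroblast-like cells with osteoblast-like, chondrocyte-like, and Adipoq stromal-like cells, by edgeR over 2 libraries; filled points passed the test and triangles are lower bounds for genes with no UMI in the other class. Cd34 and Thy1 lie to the right in the osteoblast-like panel, at 7.04 and 5.46, and Cd200 to the left, at −3.22.

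Blood cells made up most of both libraries, so the mean of 6 stromal classes, without skeletal muscle-like cells, was also compared with the mean of 12 blood classes. This average has a bounded estimate only for genes with UMIs in each averaged class, which held for Itgav, Eng, Nt5e, Cd164, and Ly6a. All 5 were higher in the mean of the stromal classes, beside 63.2% of 8513 such genes called, 27.7% as higher and 35.5% as lower. Itgav rose by 2.38 ± 0.20, Eng by 1.45 ± 0.26, Nt5e by 3.94 ± 0.43, and Ly6a by 3.73 ± 0.59, while Cd164 rose by 0.51 ± 0.22 (adjusted p = 0.0411). The Cd164 call was lost without cells with an EGFP UMI (0.47, adjusted p = 0.0678) and without cells with any reporter UMI (0.43, adjusted p = 0.0912). Adjusted p values of the first 4 lay between 1.19e-11 and 1.55e-05. From libraries 1 and 2 alone, Ly6a was at 2.05 and 4.05, Itgav at 1.80 and 2.70, Nt5e at 2.84 and 3.13, and Cd164 at 0.26 and 1.07. Some averaged classes had no Ly6a, Itgav, or Nt5e UMI in a single library. Those values therefore depend in part on a small count added before the log. An average can hide a class that goes the other way, as with Nt5e in mature neutrophil-like cells. Eng was lower in osteoblast-like, chondrocyte-like, and hypertrophic chondrocyte-like cells than in pro-B-like cells in both libraries.

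Cd200 and Ctsk had no UMI in mature neutrophil-like cells, and Thy1, Pdpn, and Cd34 had none in 4, 9, and 5 of the averaged classes, so edgeR's fold for them has no bound. With limma on log2(CPM + 10), a scale that understates changes of low genes and that was chosen after the data were seen, the stromal minus blood difference was 2.53 for Cd200, 2.46 for Ctsk, 1.18 for Thy1, 1.06 for Pdpn, and 0.99 for Cd34. The blood value of Ctsk in this average includes the 6 cells with osteoclast genes. Over all 13634 genes, 59.1% were called, with 4483 higher and 3577 lower, and 5478 and 2728 with DESeq2's size factors. Of the other SSC genes, 3 had UMIs in each averaged class: the LDL receptor-related gene Lrp1 rose by 5.87 ± 0.32, the integrin β1 gene Itgb1 rose by 2.23 ± 0.13, and Cd44 fell by 0.75 ± 0.23 on the log2 scale (adjusted p = 0.00536, edgeR).

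Across the 38 sums of named classes and libraries, levels of Thy1, Ly6a, Cd34, and Pdpn on the log2(CPM + 10) scale were correlated at a Pearson r of 0.740 to 0.874 for each pair. Cd200 and Itgav were at 0.758 and Itgav and Ctsk at 0.705, whereas Nt5e and Eng were at −0.105. The points share libraries and depth, and these r values are descriptions. The genes with the most similar pattern were Ptprk (0.956) and Maged1 (0.950) for Cd200, Lrrc58 (0.901) and Slc17a5 (0.896) for Itgav, and Ntn1 (0.926) and 2900041M22Rik (0.916) for Thy1. They were Kif3a (0.848) and Dtx3 (0.834) for Eng, Cpq (0.858) and Ckb (0.810) for Ctsk, and Gm19705 (0.798) and Cd9 (0.797) for Nt5e. For Pdpn they were Gprc5b (0.939) and Gpc3 (0.929), for Cd164 Arf3 (0.893) and Ppp3ca (0.886), for Ly6a Medag (0.936) and Ly6c1 (0.929), and for Cd34 Procr (0.874) and Thy1 (0.863). Ly6c1 is a paralog of Ly6a, and reads of the Ly6 family may be shared between them.

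Deeper cells show more genes, so detection was compared after each cell with at least 2000 UMIs had been thinned to 2000 UMIs. The share of cells with at least 1 UMI is given as its expectation over all such draws. Shallower cells were left out here and in the co-detection below. This kept 298 of 316 fibroblast-like cells of library 2, but 35 of 71 and 39 of 63 skeletal muscle-like cells. At this depth Ly6a was detected in 65.5% and 84.9% of fibroblast-like cells, Cd34 in 58.3% and 70.6%, Thy1 in 34.7% and 25.3%, and Pdpn in 18.6% and 21.9%. In 1 seeded draw, 19 of 29 and 255 of 298 fibroblast-like cells had Ly6a, or 65.5% (exact 95% interval, counting error only, 45.7% to 82.1%) and 85.6% (81.1% to 89.4%). Without thinning, 21 of 29 and 289 of 316 fibroblast-like cells had a Ly6a UMI. In late erythroblast-like and skeletal muscle-like cells, which should lack these genes, the highest share was 0.0404% for Ly6a, 0 for Cd34 and Thy1, and 2.62% for Pdpn, and the Pdpn value rests on 1 UMI in 1 skeletal muscle-like cell. Pdpn was detected in 5.04% and 2.84% of osteoblast-like cells, with 90 UMIs in 30 of 131 and 62 UMIs in 32 of 253 cells before thinning.

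Ctsk was detected in 21.6% and 54.1% of fibroblast-like cells, 35.7% and 23.4% of Adipoq stromal-like cells, and 22.7% and 29.6% of osteoblast-like cells. Osteoblast-like cells with Cd200 made up 27.7% and 28.2%, and Adipoq stromal-like cells with Cd200 18.0% and 31.7%, but it was found in 2.59% and 6.30% of fibroblast-like cells, against a background of up to 1.85%, which rests on 3 UMIs in 2 late erythroblast-like cells. Itgav was detected in 37.3% and 27.2% of Adipoq stromal-like cells and in 10.9% and 13.7% of fibroblast-like cells. Nt5e was detected in 21.8% and 43.0% of mature neutrophil-like cells and in 33.5% and 26.0% of hypertrophic chondrocyte-like cells. Eng was detected in 27.7% and 6.47% of tenocyte-like cells, and in library 1 this rested on 12 cells. Among classes with at least 10 cells in both libraries, for 5 of the 10 genes, Ly6a, Cd34, Thy1, Pdpn, and Ctsk, the mean share was highest in fibroblast-like cells at 1000, 2000, and 4000 UMIs alike. How many of all genes were detected most often in this class was not counted.

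**Figure D3:**
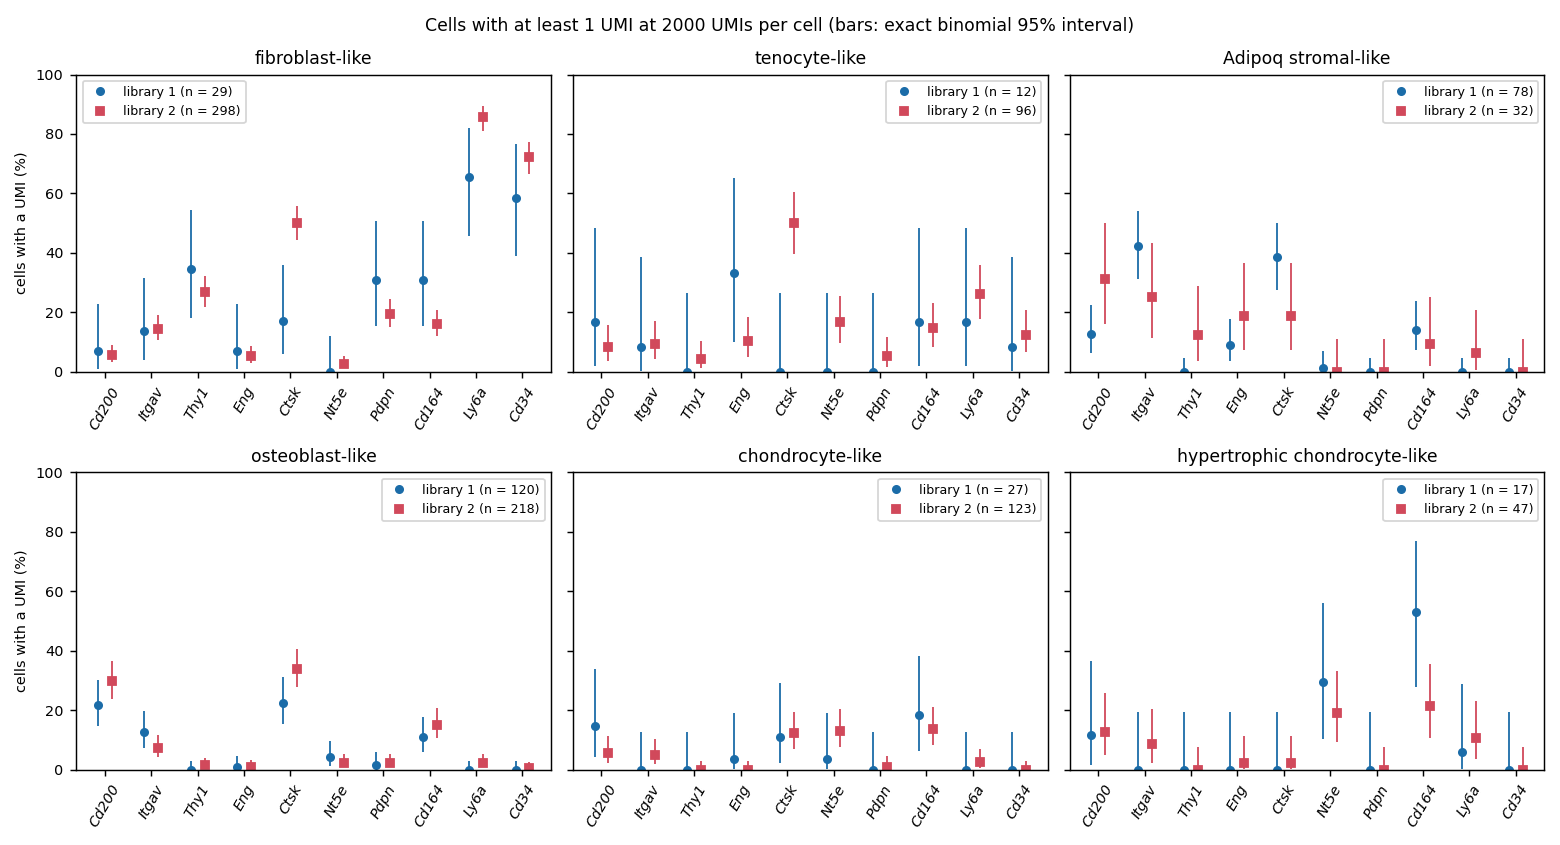
Share of cells with at least 1 UMI in 1 seeded draw of 2000 UMIs per cell, in percent, for the 10 genes in 6 stromal classes, with exact binomial 95% intervals for each library. Ly6a is at 65.5% and 85.6% in fibroblast-like cells, and Cd164 is detected in both libraries of each class shown.

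A fibroblast-like cell held on average 2.50 of the 10 genes in library 1 and 3.03 in library 2 at 2000 UMIs, and the 10 genes made up 0.357% and 0.457% of its UMIs. Tenocyte-like cells held 0.893 and 1.57, smooth muscle/pericyte-like cells of library 2 held 1.503, Adipoq stromal-like cells 1.21 and 1.29, hypertrophic chondrocyte-like cells 1.05 and 0.923, and osteoblast-like cells 0.907 and 0.905. Late erythroblast-like cells held 0.0480 and 0.0641. These means rest on shares of the same genes and were not tested.

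Co-detection was then asked of single cells at the same depth, for all 45 pairs and for 5 combinations taken from sorting schemes. Ly6a with Cd34 was found in 54.6% of fibroblast-like cells in library 1 and 63.8% in library 2. The product of the single shares would give 38.1% and 59.9%, so both genes were found together 1.43 and 1.06 times as often as independent detection would give. A joint share cannot exceed the smaller single share, here that of Cd34. The ratio therefore has a lower ceiling in library 2, and the 2 ratios are not on the same scale. Of all cells with Ly6a and Cd34, expected at 17.6 and 200.7, 90.0% and 94.8% were fibroblast-like. Most of the others were tenocyte-like, with 4.67% and 3.60% of these cells, and in library 1 T/NK-like, with 5.18%. The combination Pdgfra+Ly6a+, the RNA counterpart of the PDGFRα+SCA-1+ sort, was found in 31.6% and 37.7% of fibroblast-like cells, which held 98.9% and 93.5% of such cells.

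Ctsk with Cd200 was found in a larger share of osteoblast-like and Adipoq stromal-like cells than of fibroblast-like cells. Osteoblast-like cells held both genes in 6.77% and 8.47% of cells, and they were found in 5.67% and 11.8% of Adipoq stromal-like cells, but in 0.817% and 2.99% of fibroblast-like cells. Osteoblast-like cells held 59.3% and 40.2% of the 13.7 and 45.9 cells expected with both, and the Msmp-led cluster held 14.9% in library 2. Fibroblast-like cells of library 2, with 298 cells at this depth, held more of these cells than the Msmp-led cluster. The combination therefore did not leave out fibroblast-like cells. In osteoblast-like cells the ratio to the product of single shares was 1.08 and 1.01, close to independence.

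An RNA counterpart of part of the mouse SSC sort, Cd200+Itgav+ without Thy1, Eng, or Enpep, was expected in 9.65 and 10.5 cells of all classes. No other gene was required to be absent, and blood classes were included. This combination was found in 6.46% and 3.53% of Adipoq stromal-like cells and 2.70% and 1.77% of the osteoblast-like class, against 0.383% and 0.554% of fibroblast-like cells. The counterpart of the human SSC sort, Pdpn+Nt5e+Cd164+ without Mcam, was expected in 0.484 and 0.317 cells, so it was not detectable at this depth, and at 4000 UMIs it was expected in 2.48 and 1.64 cells. Absence of an RNA at 2000 UMIs does not show absence of the protein, so the negative part of each combination is weaker than in a sort.

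**Figure D4:**
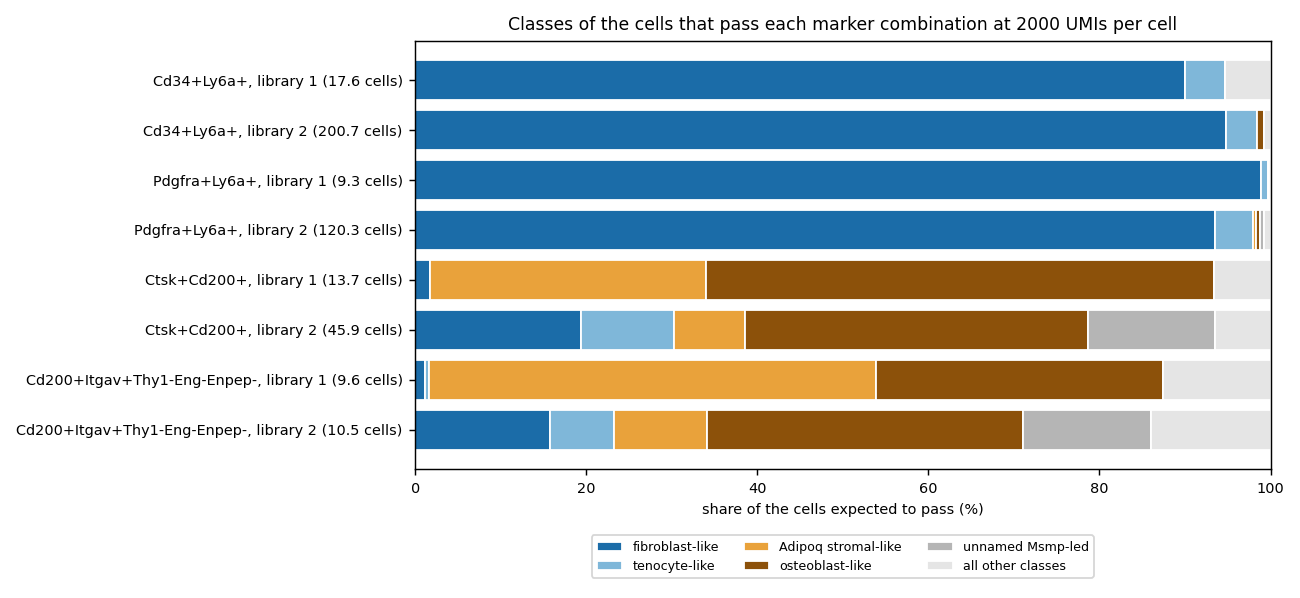
Share of the cells expected to pass each of 4 marker combinations at 2000 UMIs per cell that falls in each class, in percent, with 1 bar per combination and library. Cd34+Ly6a+ bars are 90.0% and 94.8% fibroblast-like, whereas Ctsk+Cd200+ bars are 59.3% and 40.2% osteoblast-like.

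Among fibroblast-like pairs with at least 1 cell expected from the single shares in both libraries, the ratio lay on the same side of 1 in 11 of 20, and in osteoblast-like cells in 7 of 10 and in Adipoq stromal-like cells in 2 of 9. Thy1 with Pdpn was found 1.68 and 1.19 times, Thy1 with Cd34 1.498 and 1.17 times, and Pdpn with Cd34 1.48 and 1.10 times as often as their product in fibroblast-like cells. Cd200 with Pdpn was found 1.48 and 1.40 times as often in osteoblast-like cells, and Ctsk with Nt5e 0.340 and 0.828 times. In fibroblast-like cells of library 2 the median ratio over 42 pairs was 1.01, with a range of 0.502 to 1.199. In library 1 it was 1.27 over 20 pairs, with a range of 0.709 to 1.68. The single ratios of library 1 given above thus lie beside a raised median. These ratios pool cells of several clusters, have a ceiling set by the single shares, rest on few cells in library 1, and were not tested.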

How the data were processed

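The authors aligned and counted reads with Cell Ranger 6.1.2 on mm10, per the submitters' processing notes, and deposited UMI counts, as raw whole numbers, for each gene, barcode, and library, with no normalization and no pooling. Per the paper's methods only a human genome is named, so the annotation release is not given in the sources used here. Gene coordinates come from GENCODE M21 on GRCm38, matched by Ensembl identifier, and promoters from RefSeq.

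Cells with at least 500 genes, at least 500 UMIs, and at most 10% mitochondrial UMIs were kept. Libraries were integrated with Seurat 5.3.0 in R 4.3.3 (3000 variable genes, 30 anchor dimensions, 15 principal components, resolution 0.8), with the 10 genes kept out of the variable genes, and non-blood cells were clustered again. Clusters were named from marker lists when at least 3 markers and 50% of a list had a log2 fold of at least 1 and a UMI in at least 20% of cells, a rule set after clusters had been seen. The 10 genes and all lists were chosen with earlier results of these data known. Scrublet (scanpy 1.11.5) called 124 doublets in library 1 and 1 in library 2, where it made almost no call, and calls were not removed in the main results.

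UMIs were summed per class and library where both libraries held at least 10 cells (38 sums of 19 classes). edgeR 4.0.16 (TMM, filterByExpr, quasi-likelihood F test, Benjamini-Hochberg over 13634 genes, threshold 0.05) tested 4 comparisons of classes. Each SE was derived as the absolute log2 fold change divided by the square root of the F statistic, and was not estimated separately. The 2 sums of a class differ by library, and sums of one library come from the same cell suspension, so the library number pairs them. Deviations of the same library correlated over 171 pairs of classes with r of 0.0388 to 0.593 (median 0.162, 137 over 0.1). The main fit nevertheless carried no library term, and the library block was run as an alternative. With the block, 4 more calls were made for the 10 genes, so values near the threshold depend on this choice. Named genes were the 10 genes in each comparison, up to 6 of 21 other SSC genes with the largest change past the threshold, and for each of the 10 the 2 genes with the highest correlation. Levels carry exact Poisson intervals and shares exact binomial ones, which cover counting error only. On counts simulated for 11039 genes with 200 changed 8-fold at a dispersion of 0.1, edgeR recovered 95.5%, 95.5%, 87%, and 100% of changed genes in the comparisons with osteoblast-like, chondrocyte-like, Adipoq stromal-like, and blood classes. The simulated counts had the same dispersion for every gene and no library effect. The spread of the 10 genes was not simulated, so these shares may overstate recovery for them. Alternatives were another normalization, no low-count filter, DESeq2 1.42.0, limma 3.58.1, a library block, stromal sums alone, other clusterings, doublet removal, removal of cells with EGFP or tdTomato UMIs, each library alone, and depths of 1000 and 4000 UMIs.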

Additional observations from a re-analysis of the deposited data

How the results depend on the processing

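Doublet removal changed no call for the 10 genes, and DESeq2's size factors changed 1 of 40. These factors moved the median log2 difference of all genes from −0.02, 0.06, 0.12, and 0.17 to 0.14, 0.26, −0.00326, and 0.46 in the comparisons with osteoblast-like, chondrocyte-like, Adipoq stromal-like, and blood classes. With the replicate block, 2595 genes were called against osteoblast-like and 1010 against Adipoq stromal-like cells, where limma on log2(CPM + 10) called 1311, and the block changed no call for the 10 genes other than the 4 given above. No filter on low counts added calls for Ctsk, Cd200, and Thy1 (adjusted p = 0.0449, 0.0219, and 0.0131, edgeR). Cd34+Ly6a+ cells of library 1 were 94.9% fibroblast-like at 1000 UMIs and 81.1% at 4000 UMIs.

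The limma fit, the clustering without the other SSC genes, leaving out the cluster with B cell genes, and leaving out cells with reporter UMIs were chosen after the data were seen. Signs turned only for values that did not pass. Against osteoblast-like cells, Cd164 was at −0.082 at resolution 0.4 and −0.092 without the cluster with B cell genes, and Nt5e was at 0.55 at resolution 1.2 and 1.76 when the other SSC genes were kept out of the clustering. From 1 library alone, Itgav ranged from −0.46 to 0.57, Ctsk from −0.73 to 0.89, and Cd164 from −0.031 to 0.11 against osteoblast-like cells, and Nt5e ranged from −0.10 to 1.44 and Ctsk from −0.32 to 1.78 against Adipoq stromal-like cells. Without cells with a reporter UMI, Itgav was at −0.026 and Cd164 at −0.16 against osteoblast-like cells. In the stromal minus blood average, Cd34 was at 0.39 in the main fit and at −0.56 without these cells. It was at −0.35 with skeletal muscle-like cells in the stromal mean. The fold of Cd34 has no bound in this average, so these values and their signs do not show a direction. With skeletal muscle-like cells in the stromal mean, 7 calls were lost. These were Cd200, Itgav, Eng, Ctsk, Nt5e, Cd164, and Ly6a, of which Cd200 and Ctsk had no bounded fold in the main average. Cd164 was at 14.9 and 11.4 CPM in skeletal muscle-like cells, and the others had no UMI there. The causes of these changes were not tested. Resolution 1.2 and the clustering without the other SSC genes gave no Adipoq stromal-like value, because library 2 then held fewer than 10 such cells. A single library allows no test, and library 1, with 29 fibroblast-like cells, limits every comparison.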
